A study of Mus musculus with 32 samples.

Results

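Transcripts of 10 enzymes that act on ethanol, acetaldehyde, acetate or related aldehydes were followed in the frontal cortex (FCtx) of alcohol-drinking mice. The enzymes were Aldh2, Aldh1a1, Aldh3a2, Aldh5a1, Aldh7a1, Aldh9a1, Adh5, Cat, Acss2 and Cyp2e1, and every probe that the array table names for them was taken, 14 probes for 10 of the 18138 gene symbols in the table. The animals were female C57BL/6J x FVB/NJ F1 hybrids, which the study's methods describe as coming from reciprocal crosses, while the labels name 1 direction. The ethanol group held 20 mice that chose between a bottle of 20% ethanol and a bottle of water in daily dark-phase sessions for 20 days, and the control group held 12 untreated mice. The age of the mice at dissection is not given in the sources used here. Drinking was voluntary, so doses differed between mice. The study's methods place the dissection 20 hours after the last session, while its discussion gives a longer interval. The discussion adds that the mice could have been in acute withdrawal. Each mouse gave 1 Illumina MouseRef-8 array of total RNA from the dorsal part of the rostral cortex, a bulk sample in which fewer cells of a type and less RNA per cell cannot be told apart.

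Ethanol is oxidised to acetaldehyde and acetaldehyde to acetate, and most of this takes place in the liver. In brain, where the classical hepatic alcohol dehydrogenase is scarce, catalase (Cat) in peroxisomes and the cytochrome P450 enzyme Cyp2e1 are the known routes from ethanol to acetaldehyde. The mitochondrial aldehyde dehydrogenase Aldh2 carries out most acetaldehyde oxidation, and the cytosolic and nuclear enzyme Acss2 turns acetate into acetyl-CoA. The other members work on related substrates. Adh5 is the glutathione-dependent formaldehyde dehydrogenase, Aldh1a1 oxidises retinaldehyde, Aldh3a2 oxidises fatty aldehydes, Aldh5a1 oxidises succinic semialdehyde from GABA breakdown, Aldh7a1 acts in lysine breakdown and Aldh9a1 oxidises aminoaldehydes.

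The 32 arrays lay on 4 chips of 8 arrays. Chips 1 and 2 held ethanol mice only and chip 4 held controls only. On chip 3 the odd positions (A, C, E, G) carried 4 ethanol mice and the even positions (B, D, F, H) carried 4 controls. Chip and treatment therefore cannot be told apart on chips 1, 2 and 4, nor can odd or even position and treatment on chip 3. Between 10644 and 11544 probes were detected per ethanol array and between 9480 and 11413 per control array. Control mouse C66 had the fewest detected probes. The median signal over all probes lay between 166 and 203 on ethanol arrays and between 146 and 187 on control arrays. Neuronal markers were present, with 6 of the 9 on the array tested and Snap25, Nefl and Tubb3 below the detection filter, and none of 6 choroid plexus markers was tested.

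Detection decided which enzymes could be compared at all. A probe was tested when its detection p-value was below 0.01 on at least 24 of the 32 arrays, which 7 of the 14 probes and 7 of the 10 genes met. These were Aldh2, Aldh3a2, Adh5, Cat and Acss2 on all 32 arrays, Aldh5a1 on 31 and Aldh1a1 on 30. Cyp2e1 and Aldh9a1 were detected on 0 arrays, and Aldh7a1 was detected on 2 of 20 ethanol arrays and 0 of 12 control arrays. Aldh9a1 gave signals between 130 and 185 in ethanol mice and between 123 and 160 in controls, and Cyp2e1 between 138 and 197 and between 129 and 168. These signals did not exceed those of the negative control beads by the detection test, so no difference can be given for Cyp2e1, Aldh7a1 or Aldh9a1, and a transcript below this limit may still be present. For all 7 untested probes the median deposited signal was higher in ethanol mice, the same direction as the median over all probes of the arrays.

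In each of the 3 genes with several probes, exactly 1 probe was tested and the others stayed at background. Their sequences are shown because the choice of probe decided whether the gene was measured. For Adh5, the probe at base 288 of its mRNA was detected on all 32 arrays, while those at bases 1262 and 1444 were detected on 0. For Acss2, the order along the transcript was the opposite, with the probe at base 2594 detected on 32 arrays and the one at base 164 on 1. For Aldh5a1, the probe at base 1626 was detected on 31 arrays and the one at base 1875 on 1. The lines below give them 5′ to 3′ as the array table does, all in lower case, the probes at bases 288 and 164 whole and the others by their first 30 bases of 50.
Adh5, base 288: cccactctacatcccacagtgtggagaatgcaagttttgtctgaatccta
Adh5, base 1262: cgagactgtaatcatgaactaggcaaattc
Adh5, base 1444: gctgatcttgaattcatccacatgggttta
Acss2, base 2594: ccttgcagatggtagcattgtctaccagtt
Acss2, base 164: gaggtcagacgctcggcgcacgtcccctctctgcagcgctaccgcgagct
Aldh5a1, base 1626: gtacctagaggtcaagtatgtgtgttacgg
Aldh5a1, base 1875: ctgagaccccagcacaaccccactgcctca

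The array table places the Adh5 probes on the plus strand at chr3:138110829-138110878, chr3:138118192-138118241 and chr3:138118374-138118423, in the order of their mRNA positions, in a genome build that it does not name. The Acss2 probes lie on the plus strand at chr2:155343942-155343991 (base 164) and chr2:155388240-155388289 (base 2594). The Aldh5a1 probes lie on the minus strand at chr13:25003419-25003468 (base 1626) and chr13:24918766-24918815 (base 1875). The 84603 bases between the Aldh5a1 probes exceed the length of the gene in RefSeq, 30083 bases. Exon and UTR annotation for these positions was not used here. GC content over the 50 bases was 46% for the detected Adh5 probe and 40% and 38% for the others, and it was 48% for the detected and 70% for the undetected Acss2 probe. For Aldh5a1 it was 50% in the detected and 56% in the undetected probe. Neither a high nor a low GC content went with detection in all 3 genes.

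**Figure D1:**
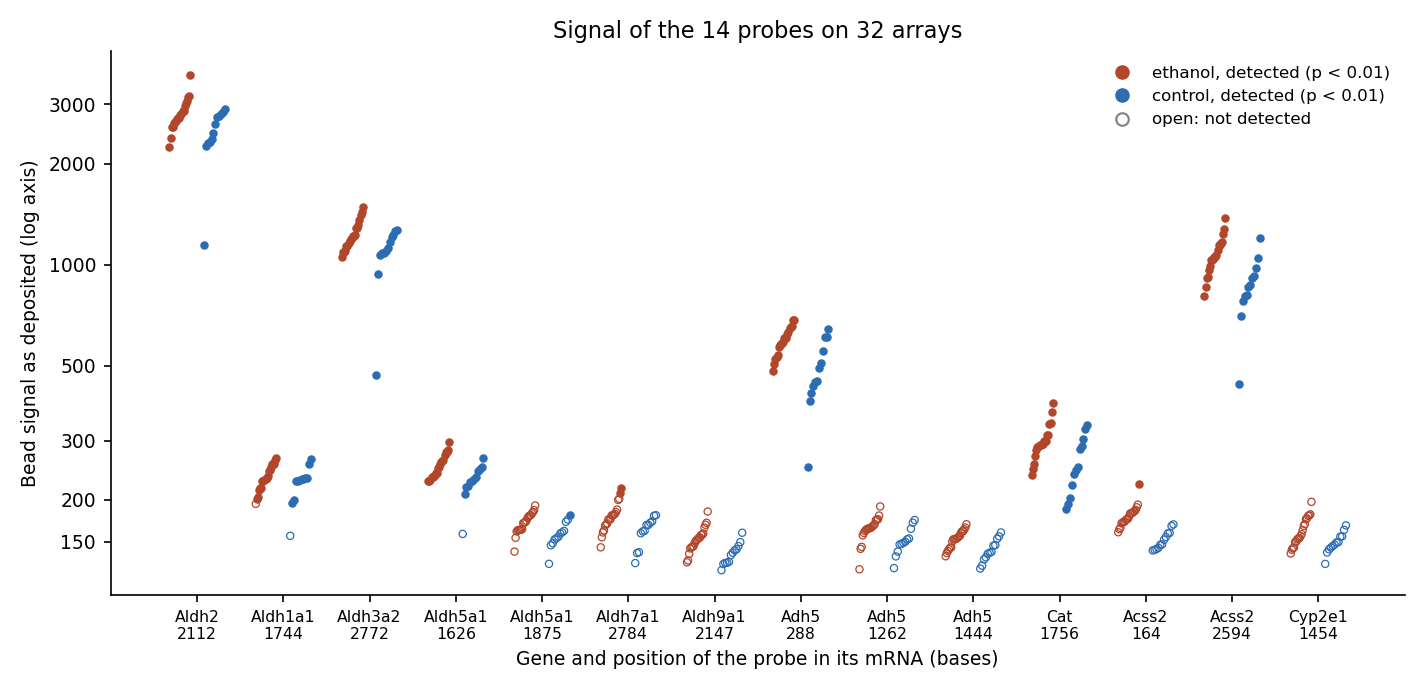
Deposited bead signal (log axis) of the 14 probes on each of 32 arrays, with ethanol mice in red and controls in blue, filled where the detection p-value was below 0.01. The x axis gives the gene and the position of the probe in its mRNA, and Adh5, Acss2 and Aldh5a1 each show 1 probe above background and the others between 124 and 222.

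Across all 32 arrays, no tested member enzyme differed between ethanol mice and controls at an FDR of 1%. This was 0 of 7 tested member probes, beside 8.21% of all 10187 tested probes. At an FDR of 10% there was 1 (Adh5), beside 25.4% of all probes, and at an unadjusted p below 0.05 there were 2 (Adh5 and Aldh1a1), beside 31.7%. The fitted log2 differences ran from -0.068 to 0.090, with 3 of 7 higher and 4 lower in ethanol mice and a median of -0.0036, beside -0.0027 over all probes. Values are on a variance-stabilized scale close to log2, and p-values are from limma with Benjamini-Hochberg adjustment over all tested probes. The ranges of both groups overlapped for all 7 probes.

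Aldh2, the main acetaldehyde dehydrogenase, had nearly the same mean in both groups. Ethanol mice lay between 11.12 and 11.48 with a median of 11.24, and controls between 11.18 and 11.37 with a median of 11.25. Exactly 10 of 20 ethanol mice were above the control median. The difference was -0.0036 ± 0.034 (SE; 95% interval -0.072 to 0.065; adjusted p = 0.956). The interval is -4.85% to 4.57% if the scale is read as log2.

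Adh5, the formaldehyde dehydrogenase of the alcohol dehydrogenase family, had the lowest p of the members. Ethanol mice lay between 8.996 and 9.36 with a median of 9.18, and controls between 8.94 and 9.26 with a median of 9.09. The ethanol values sat in the upper part of the control range, with 19 of 20 above the control median and 3 above every control. The difference was 0.086 ± 0.034 (SE; 95% interval 0.016 to 0.16), or 6.11% if the scale is read as log2. It missed an FDR of 1% (adjusted p = 0.0785). Without control mouse C66 it was 0.075 and the adjusted p was 0.149.

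Acss2, which makes acetyl-CoA from acetate, had the largest difference in size. Ethanol mice lay between 9.60 and 10.22 with a median of 9.91, and controls between 9.65 and 9.9998 with a median of 9.80. Of the ethanol mice, 16 of 20 were above the control median, 4 were above every control and 1 was below every control. The difference was 0.090 ± 0.047 (SE; 95% interval -0.0045 to 0.18; adjusted p = 0.179).

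Aldh1a1, the cytosolic retinaldehyde dehydrogenase, was measured near the detection limit, with 2 arrays below it, and its ethanol values lay in the lower part of the control range. Their values ran from 8.09 to 8.32 with a median of 8.26, against 8.13 to 8.49 with a median of 8.31 in controls. Of the ethanol mice, 3 of 20 were above the control median and 0 were above every control. The difference was -0.068 ± 0.030 (SE; 95% interval -0.13 to -0.0075; adjusted p = 0.109). Its size depended on the scale. The difference was -0.11 on plain log2 signals and -0.28 after normexp background correction, with an adjusted p of 0.127 for the latter. The transform compresses dim signals and normexp also subtracts background, and the part of each step was not tested.

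Cat, the peroxisomal route from ethanol to acetaldehyde, ran from 8.32 to 8.64 with a median of 8.45 in ethanol mice and from 8.23 to 8.64 with a median of 8.42 in controls. The control range enclosed all ethanol values, and the difference was 0.026 ± 0.037 (SE; 95% interval -0.048 to 0.10; adjusted p = 0.663). Aldh3a2, the fatty aldehyde dehydrogenase, had medians of 10.11 in both groups and a difference of -0.013 ± 0.028 (SE; 95% interval -0.071 to 0.044; adjusted p = 0.792). Aldh5a1, the succinic semialdehyde dehydrogenase, had medians of 8.29 and 8.33 and a difference of -0.017 ± 0.025 (SE; 95% interval -0.068 to 0.035; adjusted p = 0.691). These sizes also depended on the scale, and after normexp background correction the differences of Cat and Aldh5a1 were 0.10 and -0.061.

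**Figure D2:**
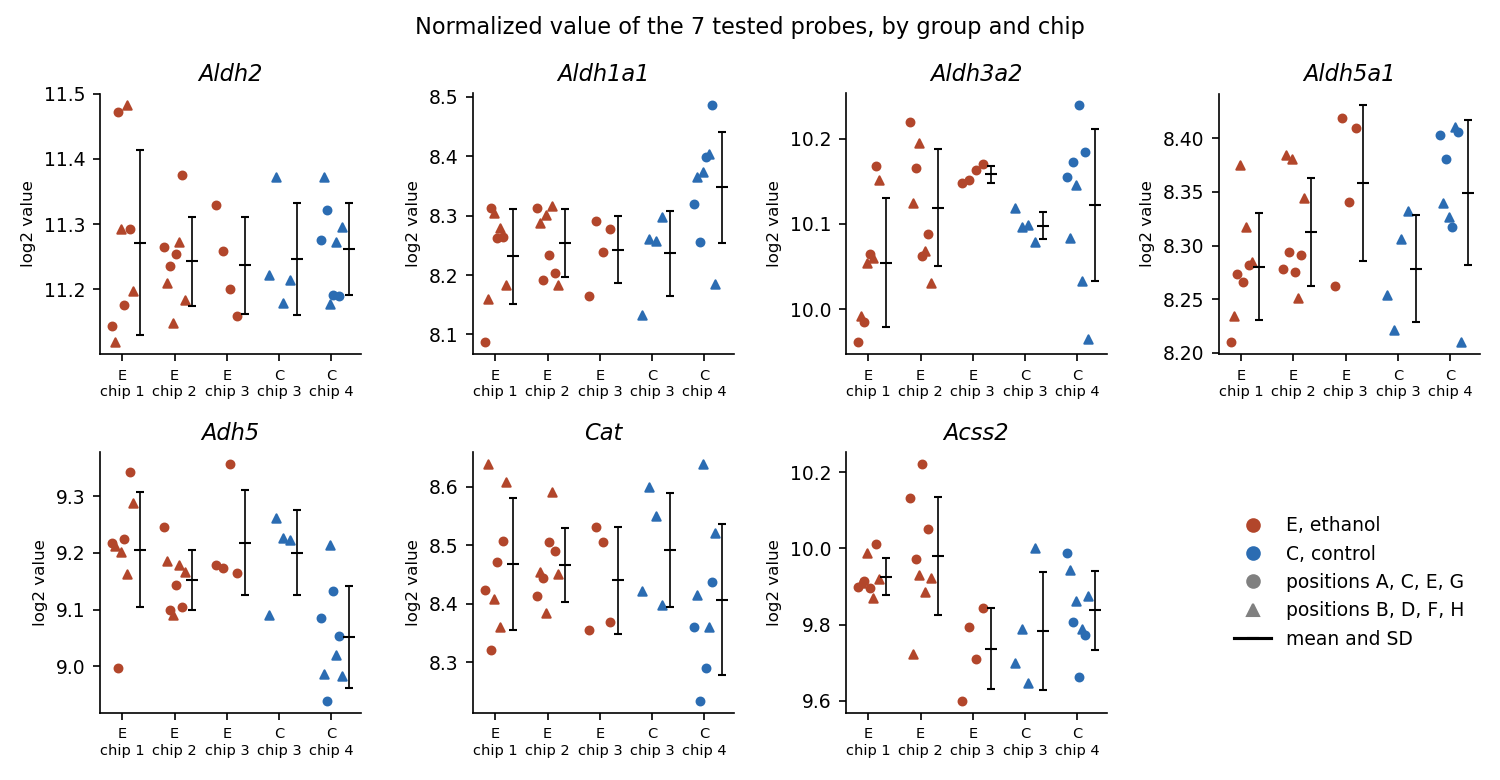
Normalized log2 value of the 7 tested probes in each mouse, by group (E ethanol, C control) and chip, with circles for odd positions (A, C, E, G), triangles for even positions (B, D, F, H), and the mean and SD of each set beside it. The controls of chip 4 had a lower Adh5 mean (9.05) and a higher Aldh1a1 mean (8.35) than those of chip 3 (9.20 and 8.24). On chip 3 Aldh3a2 is the 1 panel of 7 in which both groups do not overlap, beside 15.2% of all tested probes.

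Chip 3 was the chip that held both groups, and its fitted differences of Adh5, Aldh1a1 and Acss2 were nearer to 0 than those over all arrays or had the other sign. No member was called there (0 of 7, beside 2.63% of all probes). For Adh5 the ethanol mice were at 9.18, 9.17, 9.36 and 9.16 and the controls at 9.09, 9.26, 9.23 and 9.22, so that 1 of 4 ethanol mice (A49, 9.36) was above the control median. The difference was 0.018 (95% interval -0.10 to 0.14; limma adjusted p = 0.885), and it was -0.029 without mouse A49 and -0.019 without control mouse C52. For Aldh1a1 the ethanol mice were at 8.17, 8.29, 8.24 and 8.28 and the controls at 8.13, 8.26, 8.26 and 8.30, a difference of 0.0065 (95% interval -0.10 to 0.12). For Acss2 the ethanol mice were at 9.60, 9.79, 9.71 and 9.84 and the controls at 9.70, 9.79, 9.65 and 9.9998. Both groups overlapped throughout for these 3 enzymes, and Acss2 was not higher in the ethanol mice of this chip, with a difference of -0.046 (95% interval -0.21 to 0.11).

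Aldh3a2 was the 1 of 7 members whose groups did not overlap on chip 3, beside 15.2% of all tested probes. Its ethanol mice were at 10.15, 10.15, 10.16 and 10.17 and its controls at 10.12, 10.10, 10.10 and 10.08. The difference was small, 0.060 ± 0.041 (SE; 95% interval -0.029 to 0.15; limma adjusted p = 0.391). Between odd and even positions on the other chips Aldh3a2 differed by 0.047 (95% interval -0.020 to 0.11; limma adjusted p = 0.359). On chip 3 Aldh5a1 was at 0.080 (95% interval -0.029 to 0.19), with 3 of 4 ethanol mice above the control median. The difference of Cat was -0.052 (95% interval -0.18 to 0.078) and that of Aldh2 was -0.0098 (95% interval -0.13 to 0.11).

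The ethanol mice of chips 1 and 2 set against the controls of chip 4 gave larger differences for Adh5, Aldh1a1 and Acss2. No member was called there at an FDR of 1% (0 of 7, beside 11.8% of all probes), and 3 of 7 passed an FDR of 10%, beside 31.5%. These were Adh5 at 0.13 (adjusted p = 0.0154), Aldh1a1 at -0.11 (adjusted p = 0.0294) and Acss2 at 0.12 (adjusted p = 0.0715). Control means were not the same on both chips, a difference that was not tested. The Adh5 mean was 9.20 ± 0.075 (SD, n = 4) in controls of chip 3 and 9.05 ± 0.090 (SD, n = 8) in those of chip 4, while Aldh1a1 was at 8.24 ± 0.072 and 8.35 ± 0.094. The effect of ethanol was also compared directly between chip 3 and the other chips, and no member was called (0 of 7, beside 2.92% of all probes). The lowest adjusted p was that of Aldh5a1, 0.119, for a difference between effects of 0.13 (95% interval 0.022 to 0.24).

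Odd and even positions were compared in the same way. Between odd and even positions within chips 1, 2 and 4, where treatment does not vary, no member was called (0 of 7, beside 3.99% of all probes). On each of these chips the odd positions carried the lower mouse numbers, so position and mouse number cannot be told apart. Cat had the largest such difference, -0.078 ± 0.039 (SE; 95% interval -0.16 to 0.0033; adjusted p = 0.195), followed by Acss2 at 0.059 and Aldh3a2 at 0.047. With chip as a block and odd or even position as a covariate, 0 of 7 members were called, beside 0.00982% of all probes, a single probe. In that fit Adh5 was at 0.026 (95% interval -0.12 to 0.17) and Acss2 at -0.11 (95% interval -0.29 to 0.076).

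**Figure D3:**
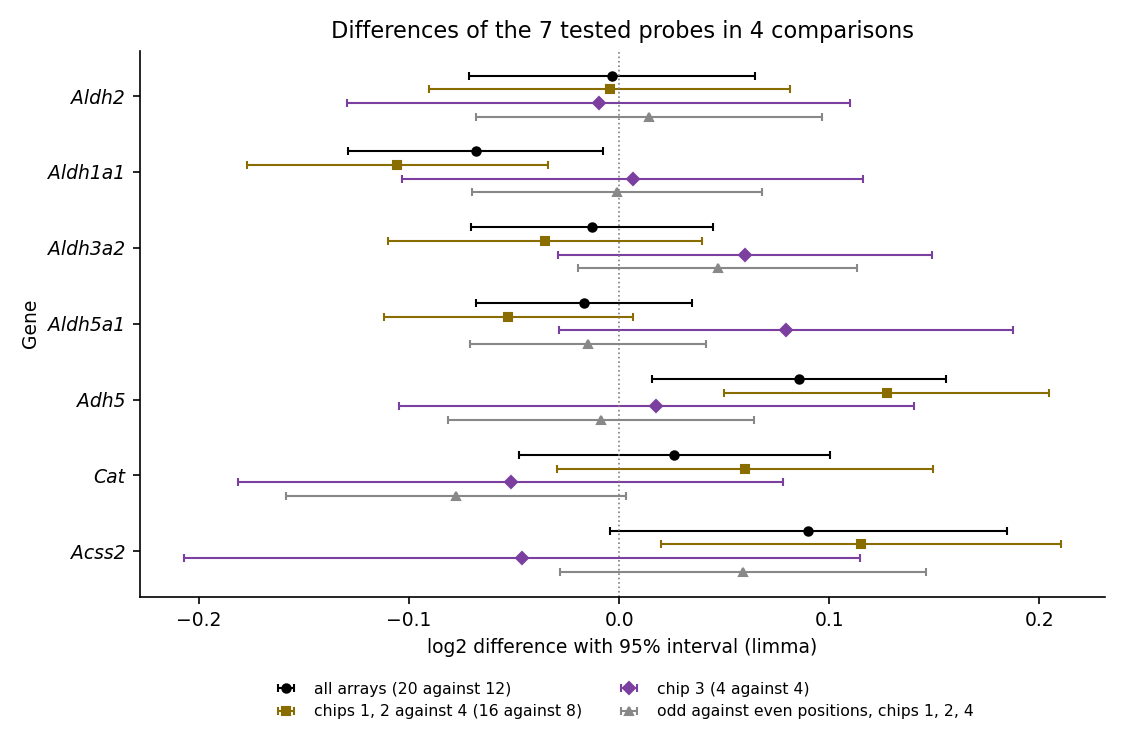
Log2 differences of the 7 tested probes with 95% intervals (x axis) in 4 comparisons, namely ethanol against control over all arrays, chips 1 and 2 against chip 4, chip 3 alone, and odd against even positions. Adh5, Aldh1a1 and Acss2 lie farthest from 0 between chips 1 and 2 and chip 4, at 0.13, -0.11 and 0.12, and their chip 3 intervals all include 0.

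Most pairs of members varied with little relation to each other within groups. After centring within group and chip, 21 pairs were compared over the 32 arrays, with permutation tests of 100000 resamples, and 0 pairs had an adjusted p below 0.05, while 4 had an unadjusted p below it. The strongest pair was Aldh1a1 with Aldh5a1 (Pearson's r = 0.558, permutation p = 0.00240, adjusted p = 0.0504, and Spearman's rho = 0.488, permutation p = 0.00811, adjusted p = 0.170). Within sets, r was 0.439 for the ethanol mice of chips 1 and 2, 0.612 on chip 4 and 0.715 on chip 3, and it fell to 0.377 without the 2 mice farthest from the median of Aldh1a1. Adh5 and Cat were next (r = 0.516, permutation p = 0.00823, adjusted p = 0.0864, and rho = 0.424, permutation p = 0.0273, adjusted p = 0.286), with 0.535, 0.487 and 0.539 within the same sets and 0.329 without the 2 farthest mice. All points share the normalization, and Aldh1a1 and Aldh5a1 both lie near the detection limit.

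**Figure D4:**
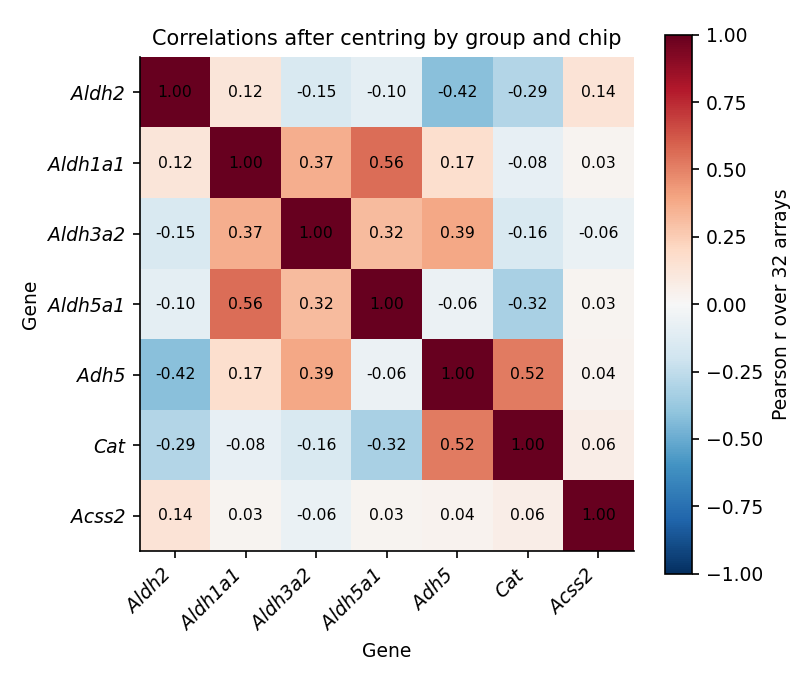
Pearson's r between the 7 tested probes over 32 arrays after centring within group and chip, from blue (negative) to red (positive). The pairs Aldh1a1 with Aldh5a1 (0.56) and Adh5 with Cat (0.52) have the highest values off the diagonal.

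Among 7925 other genes, the 2 whose values followed each enzyme most closely were found by Pearson's r over the 32 centred arrays. Aldh2 was most like Naca (r = 0.613) and Rhob (0.599), Aldh1a1 like Crls1 (0.682) and 8430410K20Rik (0.644), and Aldh3a2 like Cdk5rap3 (0.667) and Prkrir (0.658). Aldh5a1 was most like Tial1 (0.717) and Maged1 (0.682), and Cat like Pcmt1 (0.680) and Plekhj1 (0.678). Acss2 was most like the neuropeptide gene Vip (0.631) and Kbtbd4 (0.630), and Adh5 like Snrpa (0.568) and a gene listed by a number alone (0.561). These are the highest of many values and a description of these arrays.

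The genes around these enzymes were taken from 9 lists that cover the rest of the pathway, 140 genes with 124 on the array and 68 tested. Of the 68, 8 were called, 6 higher and 2 lower in ethanol mice, which is 11.8%. Counted in the same way by each gene's brightest probe, 2.95% of all 7926 tested genes were called higher and 5.11% lower. On chip 3 alone 2 of the 68 were called, beside 2.63% of all probes, and with chip and position in the fit 0 were, beside 0.00982%.

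The other alcohol dehydrogenases were nearly all below detection. Adh1, the classical ethanol-oxidising enzyme of liver, Adh4 and Adh7 were detected on 0 arrays, and the mitochondrial hydroxyacid-oxoacid transhydrogenase Adhfe1, the 1 tested gene, was at 0.048 (limma adjusted p = 0.237). Of the other aldehyde dehydrogenases 6 of 13 were tested and 0 were called. The lowest p was that of the mitochondrial methylmalonate semialdehyde dehydrogenase Aldh6a1, at 0.11 (adjusted p = 0.0791) over all arrays and 0.24 on chip 3 (adjusted p = 0.0549). Aldh1b1, the mitochondrial relative of Aldh2, was detected on 15 arrays and not tested. Of the carbonyl and aldo-keto reductases, which reduce aldehydes back to alcohols, 7 were tested and 0 called, with Dhrs1 lowest in p at -0.088 (adjusted p = 0.120). Of the genes of acetate and acetyl-CoA use, 4 were tested and 0 called, with the carnitine acetyltransferase Crat at -0.063 (adjusted p = 0.220).

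The peroxisome, in which catalase resides, was the list with the most tested genes. Of 27 genes on the array 19 were tested, with a median difference of -0.0082 over the 19. Over all arrays 4 were called higher and 0 lower in ethanol mice, beside 2.95% higher and 5.11% lower of all tested genes. Pex3, a factor of peroxisome membrane assembly, rose by 0.20 ± 0.040 (SE; limma adjusted p = 0.00107). Abcd3 and Abcd2, transporters that bring fatty acyl-CoA into the peroxisome, rose by 0.19 ± 0.030 (adjusted p = 9.11e-05) and 0.15 ± 0.033 (adjusted p = 0.00180). Agps, which makes the ether bond of plasmalogens, rose by 0.14 ± 0.037 (adjusted p = 0.00825), and without control mouse C66 its adjusted p was 0.0217. On chip 3 the differences of these 4 were 0.030, 0.093, 0.035 and 0.13 in the same order, with none called. With chip and position in the fit, Pex3 was at -0.096 and Abcd2 at -0.029, the other direction, and Abcd3 was at 0.090 and Agps at 0.047. Between odd and even positions of the other chips Pex3 differed by 0.13 (adjusted p = 0.0151).

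A list drawn up as partner enzymes of the members, not all of which act directly before or after one, held 9 tested genes. Over all arrays 2 of them were called higher and 1 lower, beside 2.95% higher and 5.11% lower of all tested genes. Esd, the S-formylglutathione hydrolase that acts directly after Adh5, fell by 0.20 on the log2 scale (SE 0.038; limma adjusted p = 0.000581), and its difference on chip 3 was -0.25 (adjusted p = 0.0153). The ornithine aminotransferase Oat rose by 0.17 ± 0.033 (adjusted p = 0.000673), and its difference on chip 3 was 0.19 (adjusted p = 0.0452). Far1, the peroxisomal fatty acyl-CoA reductase, rose by 0.11 ± 0.030 (adjusted p = 0.00802), and its difference on chip 3 was 0.030 (adjusted p = 0.741). Gad1, which makes the GABA whose breakdown runs through Aldh5a1, was at 0.31 over all arrays (adjusted p = 0.0162) and was called on chip 3 at 0.59 (adjusted p = 0.00216). On the same chip 2 of the 6 tested genes of the olfactory bulb list were called, beside 2.63% of all probes. These were Calb2 and Doc2g, both higher in ethanol mice (1.23 and 0.52). The excitatory neuron marker Slc17a7, the 1 called of 6 tested neuron markers, was lower there (-0.47). Which cells or tissue gave these transcripts was not tested, nor was their part in the Gad1 value. Among the 9 tested genes of microsomal electron transfer, which include the partners of cytochrome P450 enzymes, 0 were called over all arrays. The cytochrome b5 reductase Cyb5r3 was at -0.15 (adjusted p = 0.0110), and it was called on chip 3 at -0.28 (adjusted p = 0.00678). Gad1 and Cyb5r3 are the 2 genes of the pathway lists called on chip 3. Gad1 was named after its values were seen, as were the untested enzymes and the markers.

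Of 8 tested genes of the shuttles that reoxidise NADH, 0 were called, with the mitochondrial glycerol-3-phosphate dehydrogenase Gpd2 at 0.25 (limma adjusted p = 0.0422). Of 5 tested genes of non-oxidative ethanol metabolism, the sulfotransferase Sult1a1 fell by 0.19 on the log2 scale (SE 0.046; adjusted p = 0.00386), with -0.080 on chip 3. All 8 calls ended when chip was a fixed block, and also under median scaling. Over all tested probes, calls fell from 836 to 15 with the block and to 74 under median scaling. The block takes each difference from chip 3 alone, so its values repeat those of chip 3. On that chip Esd (-0.25), Oat (0.19) and Agps (0.13) were near their size over all arrays. Pex3 (0.030), Abcd2 (0.035), Far1 (0.030), Abcd3 (0.093) and Sult1a1 (-0.080) were smaller. Group coincides with odd or even position on chip 3. With chip and position in the fit, Agps was at 0.047 and 0 of the 68 pathway genes were called, beside 0.00982% of all probes. Over the 15 alternatives Oat lay between 0.084 and 0.24, and Esd between -0.32 and -0.15.

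**Figure D5:**
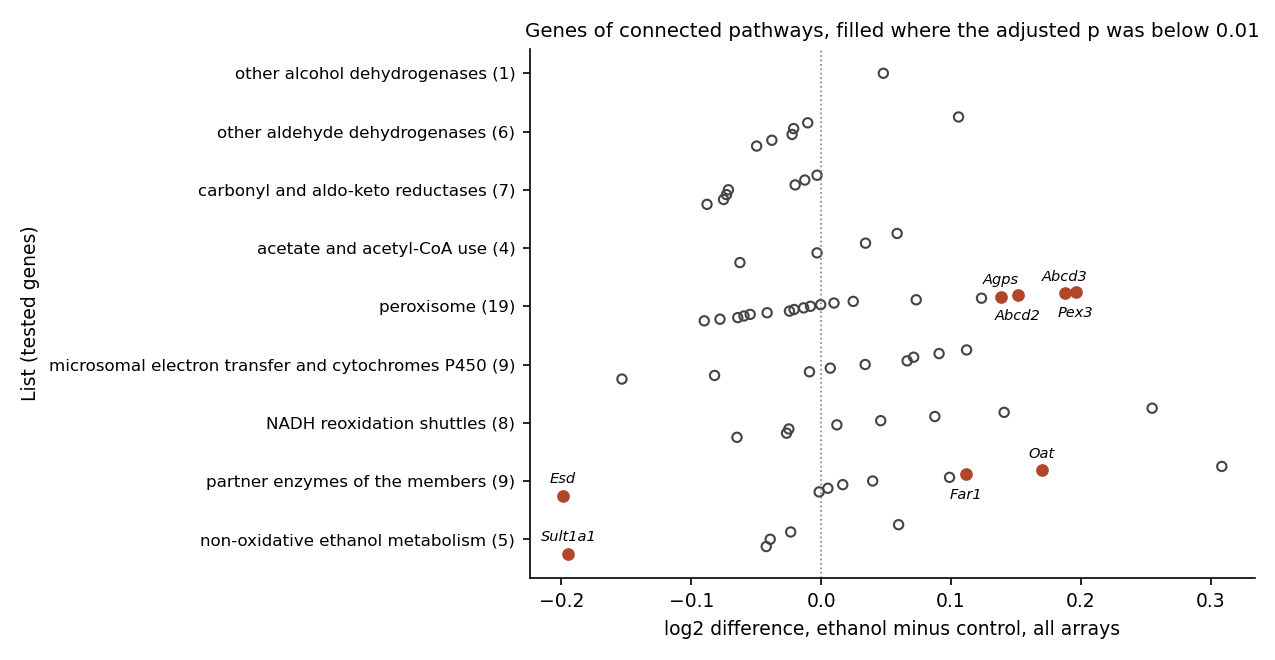
Log2 difference between ethanol mice and controls over all arrays (x axis) of the 68 tested genes of 9 pathway lists (y axis, number of tested genes in brackets), filled and named where the limma adjusted p was below 0.01. Pex3, Abcd3, Abcd2, Agps, Oat and Far1 are on the higher side, and Esd and Sult1a1 on the lower side.

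Markers of cell types and neighbouring regions were counted in the same way. Of 56 tested markers, 2 were called over all arrays (3.57%, beside 8.21% of all probes). These were the astrocyte water channel Aqp4 at 0.45 (limma adjusted p = 0.00150) and the vesicular glutamate transporter Slc17a7 of excitatory neurons at -0.26 (adjusted p = 0.00478). The lists of oligodendrocytes (10 tested), microglia (10), endothelial cells (8), blood (3), olfactory bulb (6) and striatum (4) held 0 calls over all arrays. On chip 3, where 2.63% of all probes were called, 7 of the 56 markers were, namely Aqp4, Slc1a3 and Gjb6 of astrocytes (0.48, 0.37 and 0.39), the endothelial gene Cldn5 (0.41), and Slc17a7, Doc2g and Calb2 with the values given beside Gad1. The summed level of the astrocyte list, a mean of values scaled over the arrays, ran from -0.71 to 0.54 with a median of 0.17 in ethanol mice and from -0.74 to 0.82 with a median of -0.058 in controls. That of the neuron list ran from -1.12 to 0.55 (median -0.080) and from -0.57 to 1.05 (median 0.29). That of the olfactory bulb list ran from -1.48 to 1.91 (median 0.18) and from -1.43 to 1.73 (median -0.30), and that of the microglia list from -0.93 to 0.69 (median -0.23) and from -0.48 to 0.81 (median 0.27). In ethanol mice and controls the medians were -0.31 and 0.065 for the oligodendrocyte list and 0.032 and -0.13 for the endothelial list. They were -0.16 and -0.080 for the blood list and -0.27 and -0.32 for the striatum list. The ranges of both groups overlapped in all of these lists while the medians differed, and the part of cell composition in the values of the enzymes was not tested.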

How the data were processed

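Each of 32 female mice gave 1 array. The intensities, as the authors deposited them, are mean bead signals per probe on a linear scale, not normalized. Beside them the authors deposited a detection p-value per probe, taken against negative controls, and other values, namely bead standard errors and numbers (24 to 76 beads per member probe and array). The summarizing software and its background step are not given in the sources used here. The number of arrays limits the precision, and the SD within groups had a median of 0.0998 log2 over tested probes.

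Signals were passed through a variance-stabilizing transform and quantile normalization, after the methods, in R 4.3.3 (package data.table, version 1.17.8). The fit by limma 3.58.1 took probes detected (p below 0.01) on at least 24 arrays, with Benjamini-Hochberg adjustment. A call is an adjusted p below 0.01. The steps were tested on simulated data. Symbols were matched by Entrez ID to RefSeq (all 10 members). Figures were made in Python 3.11.15 with pandas 2.3.3 and matplotlib 3.10.9.

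The members and lists were chosen with earlier results of these data known. Named were all member probes, the called genes of each list or else the one with the lowest p, and for each member the 2 genes of highest correlation, of which 1 without a symbol is not named. Gad1, the untested Adh1, Adh4, Adh7 and Aldh1b1, and the marker genes named were added after their values were seen. Other genes are given by their brightest tested probe. Pathway lists are other alcohol dehydrogenases, other aldehyde dehydrogenases, reductases, acetate use, peroxisome, microsomal electron transfer, NADH shuttles, partner enzymes and non-oxidative metabolism. Marker lists are astrocyte, oligodendrocyte, microglia, neuron, endothelial, blood, olfactory bulb, choroid plexus and striatum. Alternatives were plain log2, normexp correction (offset 16), median scaling, no detection filter, a filter of 32 arrays, chip blocks (fixed or random), position as a covariate, subsets of chips and positions, array weights, and leaving out C66 or each array of chip 3.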

Additional observations from a re-analysis of the deposited data

Results flagged for a closer look

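In 35 sets of 4 to 8 arrays (7 probes by group and chip), 2 held a value far from the rest, and chance gives about 1 in 20. Aldh5a1 was at 8.21 in control mouse C66, and at 8.32 to 8.41 in the other controls of chip 4. Adh5 was at 9.36 in ethanol mouse A49, and at 9.16 to 9.18 in the other ethanol mice of chip 3.

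Among probes that were not tested, Aldh7a1 was detected on 2 ethanol arrays (mice A3 and A32, signals 217 and 209) and on 0 control arrays, with at most 201 on the arrays without detection. The probe of Acss2 at base 164 was detected on 1 ethanol array (mouse A13, signal 222) and on 0 control arrays, with at most 193 elsewhere. The difference in detection between groups was not tested, and the ethanol arrays were brighter over all probes.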

How the results depend on the processing

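The count of members called stayed at 0 in all 15 alternatives over all arrays, 13 on chip 3, and 5 each for positions and for the difference between chips, and Adh5 kept its direction in all 15 (0.018 to 0.15). No paired analysis was possible because the mouse numbers of the groups do not overlap. Some differences changed sign, those of the called genes Pex3 and Abcd2 and of Acss2, the largest member difference, among them, and the cause was not tested. Over all arrays, median scaling (which shifted the median of all probes by 0.038) gave 0.064 for Aldh2, 0.055 for Aldh3a2 and 0.0044 for Aldh5a1. Chip as a fixed block and chip 3 alone each gave 0.0065 for Aldh1a1, 0.060 for Aldh3a2, 0.080 for Aldh5a1, -0.052 for Cat, -0.046 for Acss2 and -0.011 for Adhfe1. Chip as a random block gave 0.0029 for Aldh3a2 and 0.0042 for Aldh5a1. Chip with position gave 0.0076 for Aldh1a1, 0.013 for Aldh3a2, 0.095 for Aldh5a1, -0.11 for Acss2, -0.010 for Adhfe1, -0.096 for Pex3, -0.029 for Abcd2 and -0.16 for Gpd2. Odd positions alone gave 0.032 for Aldh2, even positions 0.028 for Aldh3a2 and 0.0021 for Dhrs1, and array weights 0.00022 for Aldh2. On chip 3, median scaling gave 0.011 for Aldh2, and leaving out single mice gave -0.041 to 0.032 for Aldh2, -0.028 to 0.033 for Aldh1a1, -0.029 to 0.038 for Adh5 and -0.092 to 0.026 for Acss2. Between positions, median scaling gave 0.029 for Adh5. The 8 called pathway genes became 0 under median scaling, with chip as a fixed block and with chip and position. They became 2 with chip as a random block and on chip 3 alone, 1 at odd and 2 at even positions, and 6 to 9 in the other settings. Calls over all tested probes went from 836 to 74 under median scaling, 15 with chip as a fixed block and 1 with chip and position. Probe calls were 68 with the random block, 268 on chip 3 alone, 289 at odd and 262 at even positions. At dim probes (Aldh1a1, Aldh5a1, Cat) the size of differences depended on the transform and the background step, and the part of each was not tested.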
